A study of Mus musculus with 26 samples.

Results

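Microglia of mice heterozygous for both Grn and Tmem106b were compared with microglia of mice wild type at both genes. The 2 groups were chosen by the genotype label alone, TMEM HET GRN HET (3 libraries) and TMEM WT GRN WT (3 libraries), which gives 6 of the 26 libraries in the series. In the labels HET and KO stand beside the gene each allele belongs to. How the alleles were made, the age of the mice and the way the cells were isolated are not given in the sources used here. All 3 double heterozygous libraries carry the dissection label Entire, and by sex label replicates 1 and 3 are male and replicate 2 is female. In wild type, replicates 1 and 3 are male and Entire, and replicate 2 is female and Hemi. The labels do not expand the terms Entire and Hemi. The other 5 groups are TMEM WT GRN HET (5 libraries), TMEM HET GRN WT (4), TMEM WT GRN KO (4), TMEM HET GRN KO (3) and TMEM KO GRN WT (4). They served to estimate the spread between libraries and to give the single heterozygotes and the knockouts against which the double heterozygotes could be read.

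Progranulin, the product of Grn, is secreted and also carried to the lysosome, where it is cleaved into granulin peptides and supports lysosomal enzymes. Loss-of-function mutations in a single copy of human GRN cause frontotemporal dementia. Tmem106b encodes a membrane glycoprotein of late endosomes and lysosomes, and human variants near TMEM106B modify the risk of that disease. Microglia, the resident macrophages of the brain, are among the strongest progranulin producers in the brain. The question addressed here is what microglial RNA looks like when a single copy of each gene remains, as opposed to the complete loss of either.

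Exon counts totalled 53.4 to 54.2 M (M, 1e+06 counts) per double heterozygous library and 37.6 to 43.1 M per wild-type library, so the groups did not overlap in depth. The whole series ran from 37.6 to 63.7 M. Levels are given as CPM, the counts of a gene per 1e+06 counts of its library. Those of single genes are after TMM scaling, which corrects for differences in library composition. Summed levels of gene lists are without TMM scaling. Differences are log2 fold changes of double heterozygous over wild type with their standard error (SE), from edgeR's quasi-likelihood test on all 26 libraries with sex and dissection as covariates. P-values were adjusted by the Benjamini-Hochberg method over 21371 genes, and the threshold was 0.05. Nothing in the labels says that the libraries of a group came from separate animals, so the p-values cover only how much these libraries vary, which may in part be technical.

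The libraries carried the RNA of microglia. The summed level of 12 microglial marker genes was 60710, 55690 and 56070 CPM in double heterozygous libraries, against 57570, 48020 and 61280 CPM in wild type, with no marker at 0. Other cell types were present at lower and uneven levels. Summed neuronal markers (12 genes) reached 53.5, 206 and 105 CPM in double heterozygous libraries, against 94.0, 1403 and 119 CPM in wild type. The high value belongs to wild-type replicate 2, the Hemi library. Summed oligodendrocyte markers (10 genes) reached 4607, 1117 and 3174 CPM in double heterozygous libraries, against 7868, 8028 and 1558 CPM in wild type. Neutrophil markers (8 genes) summed to 15.8, 0.371 and 4.21 CPM in double heterozygous libraries, against 0.280, 0.0928 and 0.213 CPM in wild type, the single marker list in which the libraries of the 2 groups did not overlap. Of these 8 markers, 2 were at 0 in all 6 libraries. Double heterozygous replicate 2 had 7 of the 8 at 0 and each wild-type library 6 or 7. The separation thus rests on values near 0. Border macrophage markers (10 genes) summed to 1121, 920 and 1199 CPM in double heterozygous libraries and to 1250, 457 and 825 CPM in wild type. In bulk RNA, more cells of a type and more RNA per cell cannot be told apart.

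**Figure D1:**
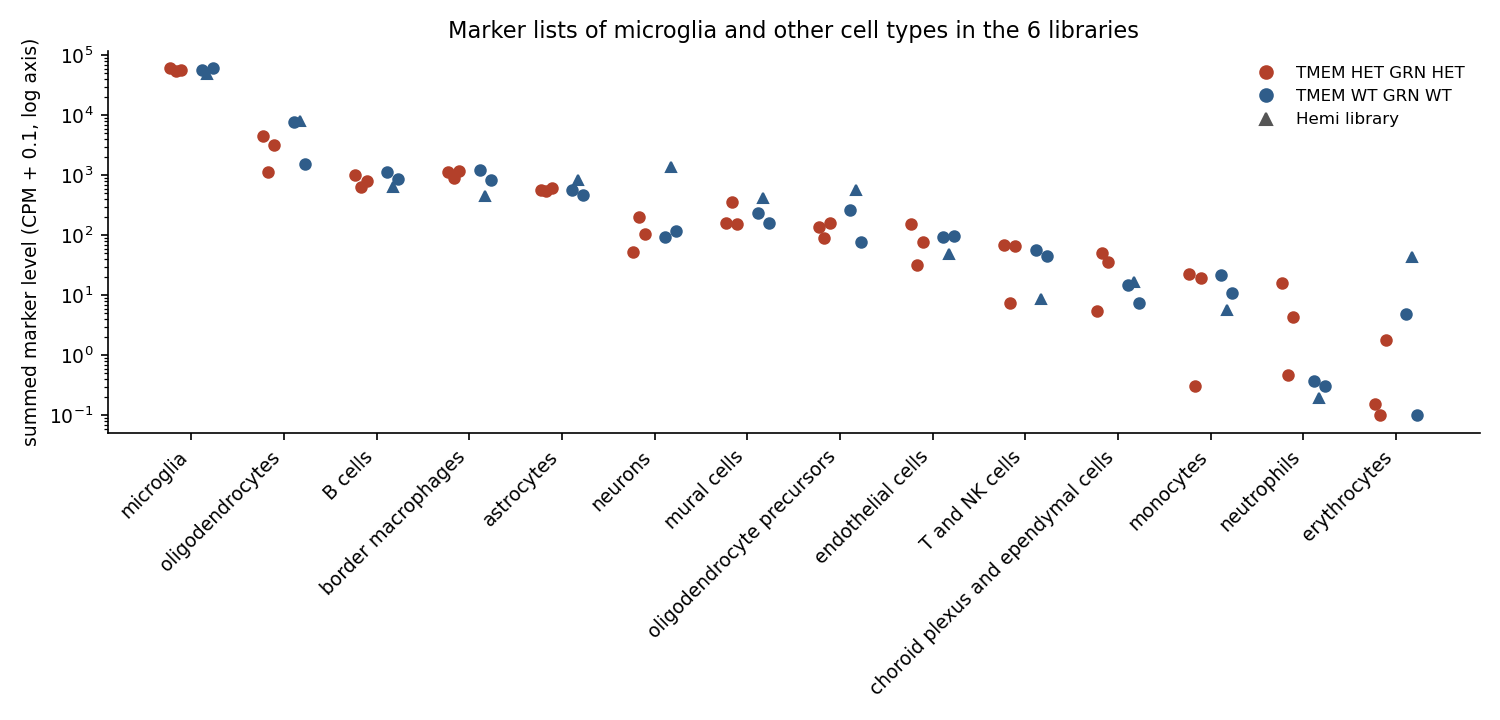
Summed CPM, without TMM scaling, of 14 marker lists (vertical axis, log scale after adding 0.1). Libraries are the 3 TMEM HET GRN HET (red) and the 3 TMEM WT GRN WT (blue), with a triangle for the Hemi library. Microglial markers lie between 48020 and 61280 CPM in all 6 libraries, and neuronal markers are highest in the wild-type Hemi library at 1403 CPM. Neutrophil markers are separated, with 0.371 to 15.8 CPM in double heterozygotes, but near 0 in double heterozygous replicate 2 as in wild type.

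Sex-linked transcripts were read as a check of the labels. Xist, the X-inactivation transcript, was at 0, 155 and 3.40 CPM in double heterozygous replicates 1, 2 and 3, against 0, 59.1 and 0 CPM in wild type. Ddx3y, a Y-linked gene, was at 82.7, 0 and 63.1 CPM in double heterozygous libraries, against 84.7, 0 and 90.5 CPM in wild type. Each library's main sex signal thus matched its label, and male double heterozygous replicate 3 held a low level of Xist that the wild-type males did not.

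Grn RNA was lower in every double heterozygous library than in every wild-type library. Grn (chr11:102430315-102437048, GRCm38) was at 2033, 1554 and 1918 CPM in double heterozygotes, against 3897, 2299 and 3838 CPM in wild type. The means were 1835 ± 250 and 3345 ± 906 CPM (SD, n = 3 each), so double heterozygotes held 54.9% of the wild-type mean. An exact two-sided permutation test of these values gave p = 0.1, the smallest that 3 against 3 allows, and 0.2 after adjustment over the 2 targeted genes. In the fit of all 26 libraries the log2 fold change was −0.77 (SE 1.23, edgeR adjusted p = 1). That fit includes knockout libraries, in which Grn is near 0 with a large relative spread, and the SE comes from the spread of all groups together. With only the 15 libraries of the 4 groups that carry no KO allele, the log2 fold change was −1.09 (SE 0.16, edgeR adjusted p = 0.26). The lowest wild-type value is again the Hemi library, and the 2 male Entire libraries of each group differed by a log2 fold change of −0.96 (SE 0.21).

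Across the series the double heterozygotes lay beside the single Grn heterozygotes. TMEM WT GRN HET libraries averaged 1414 ± 427 CPM of Grn (SD, n = 5), or 42.3% of the wild-type mean, and their spread overlapped that of the double heterozygotes. TMEM HET GRN WT averaged 2980 ± 811 CPM (n = 4), and TMEM KO GRN WT averaged 2646 ± 1671 CPM (n = 4), both overlapping the wild-type libraries. The Grn knockouts stood at 4.84 ± 7.58 CPM (TMEM WT GRN KO, n = 4) and 3.23 ± 4.24 CPM (TMEM HET GRN KO, n = 3). On the authors' length-scaled RPKM values, Grn averaged 607 ± 82.5 in double heterozygotes and 1159 ± 225 in wild type (SD, n = 3 each).

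Tmem106b, a far less abundant transcript per length than Grn on the authors' RPKM scale, overlapped between the groups. Tmem106b (chr6:13069759-13089269, GRCm38) was at 59.3, 69.1 and 59.5 CPM in double heterozygotes, against 88.6, 68.7 and 75.5 CPM in wild type. Replicate 2 of each group was nearly equal, and the other libraries were lower in double heterozygotes. The means were 62.6 ± 5.59 and 77.6 ± 10.1 CPM (SD, n = 3 each), which places double heterozygotes at 80.7% of wild type. The log2 fold change was −0.32 (SE 0.24, 95% interval −0.82 to 0.17, edgeR adjusted p = 1), and the exact two-sided permutation p was 0.2. The interval includes no change. TMEM KO GRN WT libraries still held 28.2 ± 5.13 CPM (SD, n = 4), or 36.3% of wild type, so exon counts over the whole gene do not reach 0 in the knockout label. On the RPKM scale Tmem106b averaged 8.08 ± 0.752 in double heterozygotes and 10.6 ± 0.882 in wild type (SD, n = 3 each).

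**Figure D2:**
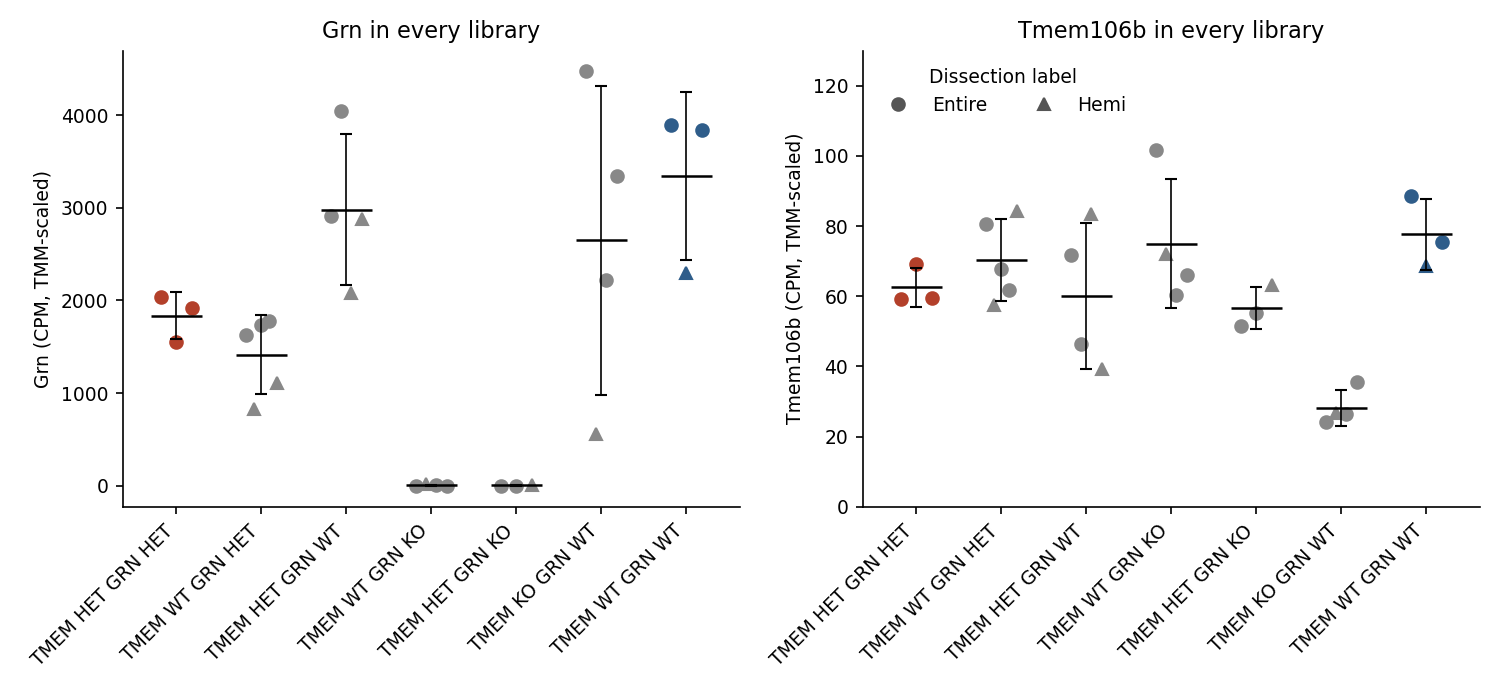
Grn (left) and Tmem106b (right) in TMM-scaled CPM for each of the 26 libraries in the 7 genotype groups, with TMEM HET GRN HET in red and TMEM WT GRN WT in blue. Horizontal lines are group means, bars are SDs, and triangles mark libraries with the dissection label Hemi. Grn in double heterozygotes (1554 to 2033 CPM) lies below all wild-type libraries, and Tmem106b overlaps.

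No gene passed the threshold between double heterozygotes and wild type. Of 21371 genes tested 0 passed (0%), and the smallest adjusted p was 0.902 (edgeR). Without adjustment, 890 genes (4.16%) had a p under 0.05, 445 of them higher and 445 lower in double heterozygotes (2.08% each way). limma-voom called 0 genes as well, with 940 at an unadjusted p under 0.05. DESeq2's Wald test, on the same genes and design, called 315 genes, 145 higher and 170 lower, of which 277 averaged under 5 CPM in both groups and 70 had groups that did not overlap. The 3 libraries of each group did not overlap for 1937 genes (9.06% of those tested), 1045 of them higher (4.89%) and 892 lower (4.17%) in double heterozygotes. The SE sets the size of difference that could be seen, with a median of 0.71 on the log2 scale over all genes and 0.33 over the 9013 genes that averaged at least 10 CPM.

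**Figure D3:**
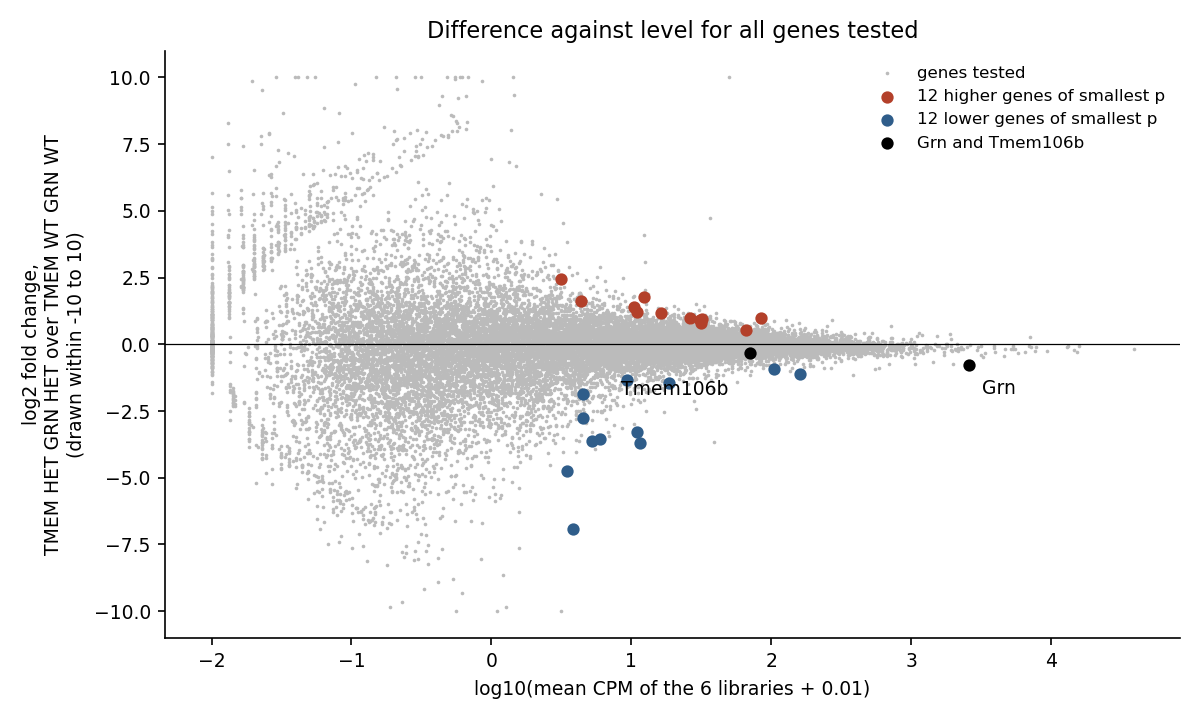
Log2 fold change of TMEM HET GRN HET over TMEM WT GRN WT (vertical axis, drawn within -10 to 10) against log10 of the mean CPM of the 6 libraries plus 0.01 for all 21371 genes tested. The 12 higher (red) and 12 lower (blue) genes of smallest p and the targeted genes (black) are marked, and the spread narrows as the level goes up, with no gene past the adjusted threshold.

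Since no gene passed, the 12 higher and the 12 lower genes of smallest unadjusted p are described, restricted to genes with groups that did not overlap, a mean of at least 5 CPM in the higher group and a log2 fold change of 0.5 or more in size. Predicted genes, pseudogenes, Y-linked genes and Xist were left out. The selection for groups that did not overlap fixes their separation, which is no evidence of a difference. The leading gene on the higher side was Eif2b1, which encodes a subunit of the guanine nucleotide exchange factor for translation initiation factor eIF2. Eif2b1 was at 33.7, 42.3 and 41.2 CPM in double heterozygotes, against 23.1, 29.2 and 16.1 CPM in wild type (log2 fold change 0.92, SE 0.19, edgeR adjusted p = 0.902). Dis3, a catalytic subunit of the RNA exosome, was at 17.6, 29.9 and 20.05 CPM in double heterozygotes, against 11.1, 10.4 and 8.06 CPM in wild type. Ash1l, a histone methyltransferase, was at 74.1, 146 and 124 CPM in double heterozygotes and 58.3, 56.9 and 51.1 CPM in wild type. In each of these 3 genes the double heterozygous libraries were above all wild-type libraries, with log2 fold changes of 0.92 to 1.17.

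Further genes on the higher side act in mRNA export, NAD synthesis and tubulin folding. Thoc1, a subunit of the THO complex that couples transcription to mRNA export, was at 67.7, 98.2 and 69.0 CPM in double heterozygotes, against 45.4, 59.8 and 56.1 CPM in wild type. Nmnat3, a mitochondrial enzyme of NAD synthesis, was at 10.7, 15.2 and 31.8 CPM in double heterozygotes, against 5.14, 5.02 and 6.18 CPM in wild type. Tbce, a tubulin-folding cofactor, was at 30.02, 50.4 and 40.3 CPM in double heterozygotes, against 25.5, 22.7 and 20.7 CPM in wild type. Thoc1 had the smallest log2 fold change of the 12 (0.53, SE 0.15) and Ccdc138 the largest (2.46, SE 0.63). The remaining higher genes were Hddc2, Zscan21, R74862, Rwdd3 and Chd1l, with log2 fold changes of 0.95 to 1.63.

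On the lower side, 6 of the 12 genes owed their wild-type mean to a single library. Tmem132e, the gene of smallest p, was at 0.0802, 0 and 0 CPM in double heterozygotes, against 0.925, 18.7 and 3.21 CPM in wild type. Nxph1, which encodes a neurexin ligand, was at 0.702, 0.267 and 0.652 CPM in double heterozygotes, against 1.59, 55.7 and 9.68 CPM in wild type. Grm2, a metabotropic glutamate receptor, was at 0.140, 0.267 and 0.265 CPM in double heterozygotes, against 0.694, 32.1 and 2.23 CPM in wild type. In all 3, and likewise in Fam189a1, Lrp3 and Nell1, the highest value was in wild-type replicate 2, the Hemi library in which summed neuronal markers reached 1403 CPM. Dissection was a covariate of this fit, and an alternative setting added neuronal and oligodendrocyte marker sums as covariates. These 6 genes stayed lower in that setting, which their selection for separated groups made likely beforehand. The part of neuronal RNA or dissection was not tested.

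The other 6 lower genes were high in all 3 wild-type libraries. Bcl6, a transcriptional repressor, was at 13.7, 6.25 and 11.4 CPM in double heterozygotes, against 28.2, 22.9 and 28.4 CPM in wild type (log2 fold change −1.44, SE 0.35, edgeR adjusted p = 1). Dpysl2, a regulator of microtubule assembly known from growing axons, was at 148, 65.4 and 98.9 CPM in double heterozygotes, against 274, 158 and 220 CPM in wild type. Irf2bpl, a nuclear protein with a RING-type domain, was at 85.9, 59.0 and 67.9 CPM in double heterozygotes, against 123, 140 and 147 CPM in wild type. In all 3 every double heterozygous library was below wild type, and the log2 fold changes ran from −1.44 to −0.94. Mocs3, which takes part in sulfur transfer for molybdenum cofactor synthesis, was at 7.68, 3.32 and 4.83 CPM in double heterozygotes, against 14.1, 12.02 and 14.2 CPM in wild type. Rpgrip1l and Zswim5 completed the 12, with log2 fold changes of −1.87 (SE 0.57) and −2.78 (SE 0.76).

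**Figure D4:**
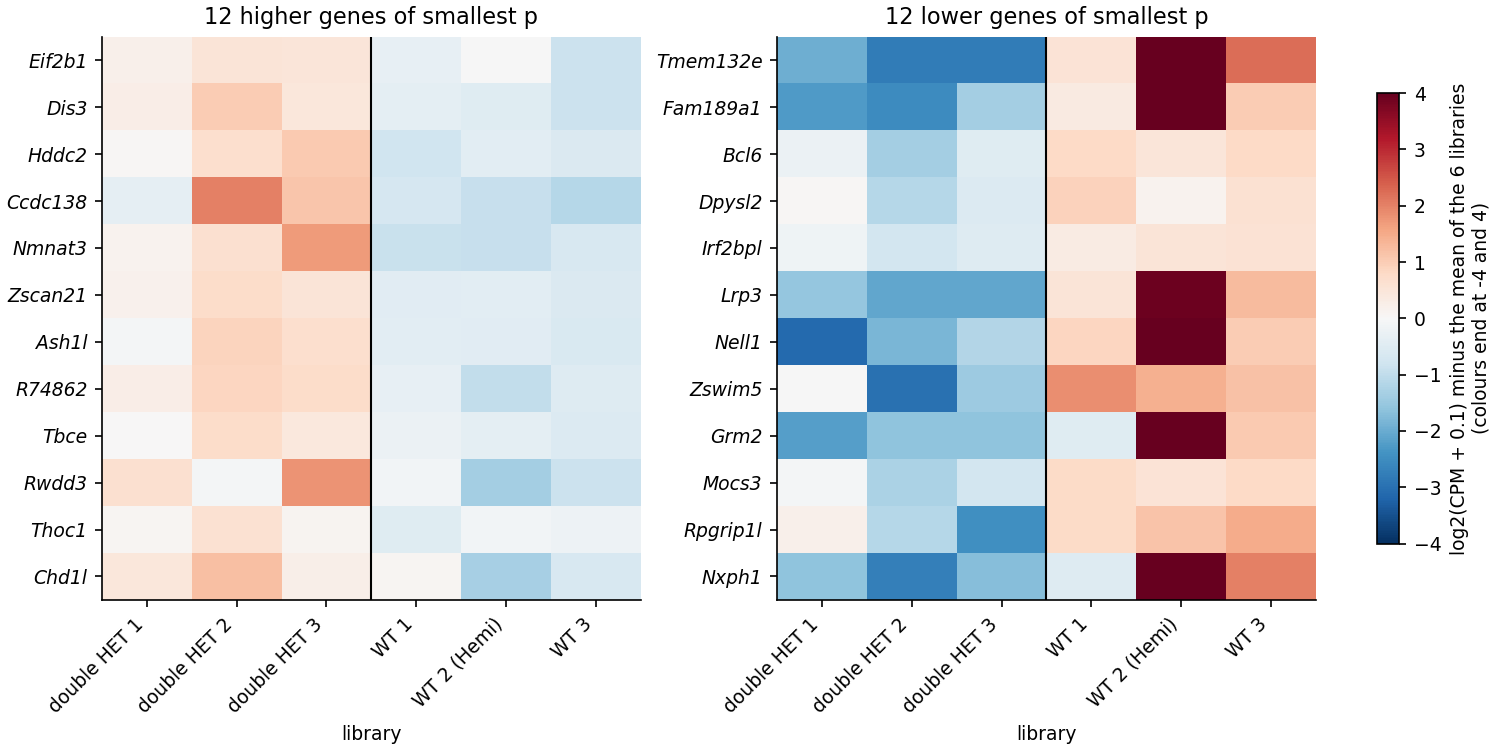
Log2(CPM + 0.1) minus the mean of the 6 libraries for the 12 higher (left) and 12 lower (right) genes of smallest unadjusted p, with the 3 TMEM HET GRN HET libraries left of the black line and the 3 TMEM WT GRN WT libraries right of it. Red is above and blue below the gene's mean. The darkest cells are 6 lower genes in wild-type replicate 2, the Hemi library.

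Single libraries also set large fold changes outside that selection, and the genes in this paragraph were chosen after their values were seen. Cartpt, a neuropeptide precursor, was at 0.0200, 0.114 and 297 CPM in double heterozygous replicates 1, 2 and 3, against 0.0257, 0.128 and 0 CPM in wild type. Ttr, transthyretin, which choroid plexus makes in large amounts, was at 0.381, 40.4 and 28.8 CPM in double heterozygotes, against 3.32, 0 and 0.953 CPM in wild type. Igkc, the immunoglobulin kappa constant region, was at 1.72, 0 and 15.4 CPM in double heterozygotes, against 215, 0.811 and 0.693 CPM in wild type. Each of these genes was high in 1 or 2 libraries and low in the others of the same group.

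The genes that differed in Grn knockout libraries had a median difference near 0 in double heterozygotes. TMEM HET GRN KO against TMEM HET GRN WT, a comparison that shares no library with the one described here, gave 3093 genes past the threshold (14.5% of those tested), 1799 higher (8.42%) and 1294 lower (6.05%) in the knockout. Cell content differed too. Summed neuronal markers were 549, 2358 and 8191 CPM in TMEM HET GRN KO, against 60.8 to 1412 CPM in TMEM HET GRN WT. Summed microglial markers were 40080, 27710 and 11580 CPM, against 40080 to 59740 CPM. The part of cell content in these sets was not tested. The 1799 genes higher in the knockout had a median log2 fold change of −0.01 in double heterozygotes over wild type, with 49.4% above 0. The 1294 genes lower in the knockout had a median of −0.06, with 41.7% above 0. Over all genes tested the median was −0.03, with 47.7% above 0. Of the 1799, 31 had every double heterozygous library above wild type and 183 had every one below, and of the 1294 the counts were 110 above and 20 below (4.89% of all genes above and 4.17% below). In both sets the separated genes thus lay mostly on the side opposite to the knockout. These counts come from CPM without adjustment for sex or dissection, and wild-type replicate 2 is the Hemi library. In the edgeR fit with both covariates, 25 of the 1799 were higher and 89 lower at an unadjusted p under 0.05. Of the 1294, 16 were higher and 15 lower (2.08% of all genes each way). The cause was not tested. None of either set passed the threshold. For Tmem106b no such set could be drawn, since TMEM KO GRN WT against TMEM HET GRN WT gave 0 genes past the threshold (0%, edgeR), with 4002 at an unadjusted p under 0.05 (18.7%).

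The genes that led the knockout difference were also read one by one. They are the 12 higher and 12 lower genes of smallest p among those past the threshold in the knockout comparison. Each had a log2 fold change of at least 0.5 in size and a mean of at least 5 CPM in the higher group. Grn, predicted genes, pseudogenes, Y-linked genes and Xist were left out. Gpnmb, a lysosome-associated glycoprotein of activated macrophages, averaged 8231 ± 5455 CPM in TMEM HET GRN KO (SD, n = 3) and 11.3 ± 12.3 CPM in TMEM HET GRN WT (SD, n = 4). In double heterozygotes Gpnmb was at 14.1, 1.72 and 16.2 CPM, against 4.14, 1.75 and 8.90 CPM in wild type. Its log2 fold change was 0.96 (95% interval −1.07 to 2.99) where the knockout difference was 9.51. Lgals3, galectin-3, which binds damaged lysosomes, was at 40.6, 31.1 and 50.4 CPM in double heterozygotes, against 44.1, 41.7 and 42.5 CPM in wild type. Its log2 fold change was −0.22 (95% interval −1.10 to 0.65) where the knockout difference was 3.96. Neither gene was thus near its knockout level in any double heterozygous library.

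For all 24 genes the 95% interval of the double heterozygous difference left out the knockout difference. This held for 24 of 24 under each alternative setting tried, with the knockout difference kept from the fit of all 26 libraries and not refitted. The error of the knockout difference itself was not added, and these genes were picked for large knockout differences. The sign matched the knockout in 6 of the 12 higher and 9 of the 12 lower genes. Pkm, pyruvate kinase, was the tightest of the higher genes, at 171, 154 and 184 CPM in double heterozygotes and 179, 223 and 196 CPM in wild type, with an upper bound of 0.36 where the knockout difference was 1.52. Upk1b, a tetraspanin, was at 155, 159 and 165 CPM in double heterozygotes, against 122, 138 and 157 CPM in wild type, where the knockout difference was −3.08.

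In 2 of the 24 genes the groups did not overlap, a share near the 9.06% of all genes tested, so the values of these genes are a description. Gpx3, a secreted glutathione peroxidase, was at 50.7, 56.9 and 70.3 CPM in double heterozygotes, against 42.2, 26.1 and 33.8 CPM in wild type (log2 fold change 0.77, SE 0.58, edgeR adjusted p = 1), on the same side as the knockout difference of 5.31. Slco4a1, an organic anion transporter, was at 94.9, 129 and 113 CPM in double heterozygotes, against 63.8, 38.7 and 55.7 CPM in wild type (log2 fold change 0.85, SE 0.41, edgeR adjusted p = 1). Slco4a1 was lower in the Grn knockout by a log2 fold change of −2.71, so the double heterozygotes lay on the other side of wild type.

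**Figure D5:**
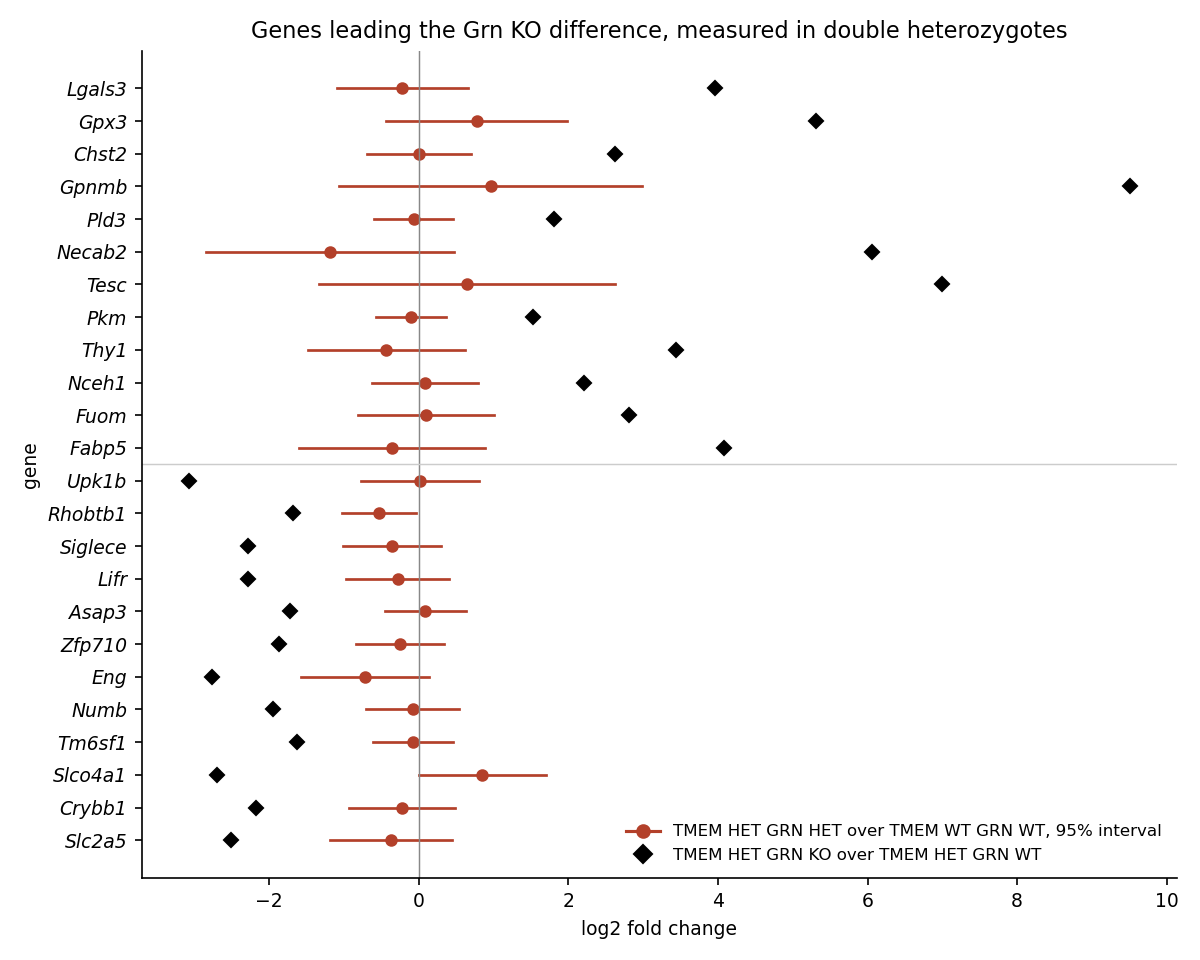
Log2 fold change of TMEM HET GRN HET over TMEM WT GRN WT, shown as red points with 95% intervals. Genes are the 12 higher (top) and 12 lower (bottom) of smallest p, under the stated limits, in TMEM HET GRN KO over TMEM HET GRN WT. The log2 fold change of that comparison is the black diamond. No red interval reaches its diamond, and Slco4a1 lies at 0.85 where the knockout lies at −2.71.

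Gene groups of lysosome and microglial biology were then described by their counts. None of the members of the 17 lists passed the threshold, against 0% of all genes. Of 53 genes of lysosomal hydrolases and membrane proteins, 15 had positive and 38 negative log2 fold changes, with a median of −0.11. Of 13 cathepsins, the lysosomal proteases, 3 were positive and 10 negative, with a median of −0.08. Both medians were above 0 with sex as the only covariate (0.07 for the lysosomal list and 0.16 for the cathepsins) and in the male Entire libraries alone (0.04 for the lysosomal list and 0.08 for the cathepsins). With only the 15 libraries that carry no KO allele the cathepsin median was 0.0060. Lgmn, asparaginyl endopeptidase, was at 3633, 2524 and 2945 CPM in double heterozygotes, against 3878, 2132 and 4317 CPM in wild type. Ctsd, cathepsin D, a lysosomal protease that binds progranulin, was at 18260, 15360 and 16890 CPM in double heterozygotes, against 15560, 10450 and 17830 CPM in wild type. The groups overlapped in both genes, and wild-type replicate 2 was the lowest library in each.

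Partners of progranulin (23 genes tested) had 8 positive and 15 negative log2 fold changes and a median of −0.08. The median was 0.13 with sex as the only covariate. Mmp9, a matrix metalloprotease, was at 40.2, 23.2 and 55.8 CPM in double heterozygotes, against 36.2, 2.22 and 14.5 CPM in wild type (log2 fold change 1.02, SE 0.50, edgeR adjusted p = 1). The 18 subunits of the vacuolar ATPase, the lysosomal proton pump, had a median of −0.04. Atp6v0d1, a subunit of its membrane part, was at 75.3, 65.6 and 71.5 CPM in double heterozygotes, below all wild-type libraries at 99.7, 87.9 and 77.8 CPM. Of the 18 subunits, 1 lay above and 2 below all wild-type libraries (4.89% and 4.17% of all genes). The 35 genes of autophagy and the TFEB family split 17 positive to 18 negative. Optn, optineurin, an autophagy receptor, was at 14.8, 27.7 and 33.2 CPM in double heterozygotes, against 11.4, 17.4 and 12.7 CPM in wild type. Its log2 fold change was 1.11 (SE 0.38, edgeR adjusted p = 1), and the groups overlapped.

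Genes of the disease-associated microglial state, which mice show around amyloid plaques, were split evenly. Of 30 genes tested 15 were positive and 15 negative, with a median of 0.00. The groups separated in none of the 30, and in 9.06% of all genes tested. Lyz2, lysozyme, was at 2358, 1877 and 2477 CPM in double heterozygotes, against 1373, 1231 and 2073 CPM in wild type. Apoe, the apolipoprotein that leads this state, was at 8062, 5835 and 9980 CPM in double heterozygotes, against 7047, 4548 and 6561 CPM in wild type. Of 25 genes of homeostatic microglia 24 had negative log2 fold changes, with a median of −0.19. This side depended on the dissection covariate, since the median was 0.07 with no covariates, 0.05 with sex alone and 0.06 with only the 6 libraries compared. P2ry12, the purinergic receptor that marks resting microglia, was at 4151, 3560 and 4184 CPM in double heterozygotes, against 4203, 2732 and 4999 CPM in wild type. Every double heterozygous value of P2ry12 lay within the wild-type range.

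Inflammatory and early response genes had more positive than negative members, none past the threshold. Of 29 genes of inflammatory cytokines and NF-kB, 19 were positive and 10 negative, with a median of 0.15, and in 3 every double heterozygous library was above wild type (4.89% of all genes did so). Il1b, interleukin-1 beta, was at 42.4, 41.5 and 28.8 CPM in double heterozygotes, against 15.4, 7.99 and 16.1 CPM in wild type (log2 fold change 1.16, SE 0.62, edgeR adjusted p = 1). Il18, a cytokine processed by the inflammasome, was at 32.6, 39.1 and 52.0 CPM in double heterozygotes, against 24.9, 22.5 and 27.6 CPM in wild type. Of 25 immediate early genes, which also respond to the isolation of cells, 16 were positive, with a median of 0.22. Dusp2, a phosphatase of this set, was at 43.8, 40.5 and 10.8 CPM in double heterozygotes, against 17.4, 4.74 and 12.1 CPM in wild type, with replicate 3 of the double heterozygotes inside the wild-type range. Jun, a transcription factor, was at 1497, 1605 and 1173 CPM in double heterozygotes, against 1070, 686 and 1137 CPM in wild type. The neutrophil marker sums given above were higher in double heterozygotes, as Il1b was. Within that group replicate 1 had the highest of both, with Il1b at 42.4 CPM and a neutrophil sum of 15.8 CPM. Double heterozygous replicate 2 had Il1b at 41.5 CPM and a neutrophil sum of 0.371 CPM. Replicate 3 had Il1b at 28.8 CPM and a neutrophil sum of 4.21 CPM. The part of neutrophil RNA in Il1b was not tested. Without double heterozygous replicate 1 the median of the inflammatory list was 0.00.

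The complement list (21 genes) had a median of −0.16, and the interferon list (30 genes) had 8 positive and 22 negative members and a median of −0.19. The complement median was 0.05 with sex as the only covariate, and that of the interferon list was 0.04 with no covariates. Irf1, an interferon-induced transcription factor, stood on the other side, at 167, 143 and 132 CPM in double heterozygotes, above all wild-type libraries at 86.5, 84.8 and 115 CPM. Irf1 was the only 1 of the 30 interferon genes to lie so, as 4.89% of all genes did. The 21 genes of antigen presentation had a median of −0.04, or 0.19 with sex as the only covariate. H2-Q7, a class I gene with near-identical neighbours among which reads may be split, was at 14.3, 13.9 and 13.7 CPM in double heterozygotes, against 10.5, 7.09 and 11.8 CPM in wild type.

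Of 25 genes of cholesterol synthesis none passed the threshold, and the median log2 fold change was −0.04. Sqle, squalene epoxidase, was at 14.9, 1.41 and 0.856 CPM in double heterozygotes, against 15.9, 53.8 and 14.6 CPM in wild type. Double heterozygous replicate 1 was close to the wild-type males and replicates 2 and 3 were far lower. Summed oligodendrocyte markers were 4607, 1117 and 3174 CPM in double heterozygotes, against 7868, 8028 and 1558 CPM in wild type. Within each group the library with the highest sum also had the highest Sqle. Between the groups, wild-type replicate 3 had a lower sum than double heterozygous replicate 3 but a higher Sqle. With neuronal and oligodendrocyte marker sums as covariates Sqle stayed lower. The part of oligodendrocyte RNA in its values was not tested. Abcg1, a sterol exporter, was at 56.0, 27.5 and 45.8 CPM in double heterozygotes, against 59.7, 60.5 and 65.8 CPM in wild type (log2 fold change −0.68, SE 0.31, edgeR adjusted p = 1). The list of lipid efflux and storage to which Abcg1 belongs (25 genes) had a median of −0.05.

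Of 28 genes of oxidative phosphorylation 23 were positive, with a median of 0.08, and the median was −0.06 with sex as the only covariate. Uqcrc1, a core subunit of complex III, was at 368, 388 and 412 CPM in double heterozygotes, above all wild-type libraries at 334, 364 and 331 CPM. Of the 28 genes, 1 lay above and 1 below all wild-type libraries (4.89% and 4.17% of all genes). Glycolysis (21 gene identifiers) had a median of −0.03. Of 25 cell cycle genes 15 were positive, with a median of 0.24, and in 6 every double heterozygous library was above wild type (4.89% of all genes tested did so). Birc5, survivin, which acts in chromosome segregation, was at 3.77, 5.85 and 4.81 CPM in double heterozygotes, against 3.47, 1.58 and 1.91 CPM in wild type. Without TMM scaling the summed level of the 25 genes was 365, 275 and 334 CPM in double heterozygotes. In wild type it was 242, 212 and 265 CPM. These sums do not show that the groups separate on the scale used for single genes.

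The double heterozygotes were also set against each single heterozygote, and the interaction of the genotypes was tested, that is, whether the double heterozygous difference departs from the sum of the single differences on the log2 scale. These comparisons share the double heterozygous libraries, and the interaction shares the wild-type libraries too. The interaction had 0 of 21371 genes past the threshold (0%, smallest edgeR adjusted p = 0.833), with 1196 at an unadjusted p under 0.05 (5.6%). DESeq2 called 402 and limma-voom 0. Against TMEM WT GRN HET 0 genes passed (0%, smallest adjusted p = 0.414), with 1451 at an unadjusted p under 0.05 (6.79%), and DESeq2 called 515. Against TMEM HET GRN WT 0 genes passed (0%, smallest adjusted p = 0.854), with 1183 at an unadjusted p under 0.05 (5.54%), and DESeq2 called 278. limma-voom called 0 in both.

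For 3 of the genes of smallest p in these contrasts the double heterozygous libraries lay outside the range of all other libraries. Thoc1 averaged 78.3 ± 17.2 CPM in double heterozygotes (SD, n = 3) and 51.2 ± 4.90 CPM in TMEM WT GRN HET (SD, n = 5), and the lowest double heterozygous library at 67.7 CPM was above the highest of the other 23 libraries at 65.7 CPM. Coq8b, which takes part in coenzyme Q synthesis, averaged 45.7 ± 16.2 CPM in double heterozygotes (n = 3), 26.9 ± 2.26 CPM in TMEM WT GRN HET (n = 5), 25.2 ± 5.59 CPM in TMEM HET GRN WT (n = 4) and 34.0 ± 4.83 CPM in wild type (n = 3). Its interaction was 1.45 on the log2 scale (SE 0.31, edgeR adjusted p = 0.833). Spint2, a serine protease inhibitor, and Lrrn2, a leucine-rich repeat membrane protein, were lower in double heterozygotes than in all other 23 libraries. Spint2 lay between 0.705 and 1.95 CPM in double heterozygotes, and its lowest value elsewhere was 3.34 CPM, in wild type. Lrrn2 lay between 1.06 and 3.61 CPM in double heterozygotes, and its lowest value elsewhere was 5.58 CPM, also in wild type. These genes were selected by their p in the same contrasts, so their separation is a description.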

How the data were processed

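RNA of microglia was extracted with a column kit, amplified with SMART-Seq v4 and made into libraries with Nextera XT, per the labels' protocols. The submitters' processing notes name GSNAP and GRCm38. The authors deposited exon counts per gene, which are raw, and RPKM values, scaled by the authors to length and depth and used here only as a second scale for the targeted genes. Symbols and coordinates were matched through GENCODE on GRCm38 for 52489 of 52636 gene identifiers, and those unmatched took at most 0.0104% of a library.

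Groups came from the genotype labels. Counts were filtered by filterByExpr, scaled by TMM and fitted with edgeR 4.0.16 in R 4.3.3 (quasi-likelihood, robust, two-sided, Benjamini-Hochberg) over all 26 libraries, with sex and dissection. The scripts were tested on simulated data. Alternatives included limma 3.58.1 (voom), DESeq2 1.42.0, other scalings, filters, covariates and library subsets, and each replicate left out. Replicates of a group differed by far more than sampling noise (chi-square per gene of 121 to 245).

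Genes named are the targeted genes, the 12 higher and 12 lower of smallest p under the stated limits, up to 4 of smallest p per list, 5 per further contrast and 12 each way from the knockout comparison. Ctsd, Apoe, P2ry12, Xist, Ddx3y and genes said to be so were added after their values were seen. The groups, lists and tests were chosen with earlier results of these data known. Gene lists were described by counts and medians, without a test. Some results are not reported here.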

Additional observations from a re-analysis of the deposited data

How the results depend on the processing

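No paired analysis was possible because the labels give no replicate numbers, and those used here only name libraries in accession order. Between double heterozygotes and wild type, 0 genes passed under every edgeR and limma-voom alternative except 1. Without TMEM HET GRN HET replicate 1 the count was 4 (Pemt, Wdpcp, Msl3l2 and Wdr78, all lower), so leaving out each replicate gave 0 to 4 genes. For double heterozygotes against TMEM WT GRN HET that range was 0 to 8, against TMEM HET GRN WT 0 to 4, and for the interaction 0 throughout. Where edgeR called 0, DESeq2's Wald test called 315 genes against wild type, 515 against TMEM WT GRN HET, 278 against TMEM HET GRN WT and 402 in the interaction. The cause was not tested. Of the 315 DESeq2 calls, 277 averaged under 5 CPM in both groups. All 24 genes described as higher or lower were among the calls, but they were picked for small p in the same libraries.

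Leaving out each replicate put the log2 fold change of Grn between −1.31 and −0.49, and that of Tmem106b between −0.52 and −0.25, without a change of sign or call under any alternative. None of the 24 described higher or lower genes changed sign, which their selection for separated groups in these libraries made likely beforehand. Named list genes that changed sign, with no call in any setting, were Ctsf (0.010 with no covariates, 0.0037 with sex alone), Ctsc (0.13, 0.094 and 0.12 with no covariates, sex alone and the 6 libraries alone), Tapbp (0.039, 0.037 and 0.030 in these settings, 0.035 in male Entire libraries and −0.35 to 0.0059 when leaving out a replicate), Pfkm (−0.18, −0.25 and −0.20), Aldoc (−0.18, −0.31 and −0.21), Ank (0.036 with marker sums as covariates) and Atp5o (−0.0042 with sex alone). Leaving out a replicate put Slpi between −2.91 and 9.20. Depth limits genes of low counts most, and with 3 libraries a group the median SE of 0.71 leaves differences of moderate size undetectable. Depth, higher in all double heterozygous libraries, cannot be told apart from genotype here.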

Other observations

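The 4 genes that passed without TMEM HET GRN HET replicate 1 were chosen after their values were seen. Wdpcp, a planar cell polarity effector, was at 11.8, 1.92 and 1.53 CPM in double heterozygotes, against 12.9, 13.9 and 8.32 CPM in wild type. Msl3l2 was at 9.22, 1.47 and 0.896 CPM in double heterozygotes, against 11.1, 15.2 and 12.4 CPM in wild type. Pemt, a phosphatidylethanolamine methyltransferase, was at 1.38, 0 and 0 CPM in double heterozygotes, against 1.34, 0.961 and 1.99 CPM in wild type. Wdr78 was at 1.72, 0 and 0.0407 CPM in double heterozygotes, against 2.03, 7.43 and 4.05 CPM in wild type. In each gene double heterozygous replicates 2 and 3 were far below replicate 1, as they were for Sqle.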
